A study of Rattus norvegicus with 12 samples.

Results

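Mitochondrial respiratory chain complexes and ATP synthase were examined through the transcripts of their nuclear-encoded subunits in jejunal mucosa of rats of a low Fe group and a high Fe group. The members are all probe sets whose only platform symbol starts with Nduf, Uqcr, Cox4 to Cox8 or Atp5, or is Sdha, Sdhb, Sdhc, Sdhd, Cyc1 or Cycs. This took 98 of 31142 probe sets, 90 of 15866 on the Affymetrix rat array 230A and 8 of 15276 on its companion 230B, for 86 of 13810 named genes. The samples were scrapes of the mucosa, the lining of the small intestine, and the labels give them a week number of 12 without saying from when the weeks run. Iron deficiency and anemia are named as keywords. Each group, high Fe and low Fe, had 3 samples, each run on both array types (12 arrays). The labels give no strain, sex, diet composition or agent, and whether each numbered sample is a different animal is not said. The p-values therefore cover the scatter among these samples alone, and that scatter may be technical.

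The respiratory chain passes electrons from NADH and succinate to oxygen through complexes I to IV and pumps protons across the inner mitochondrial membrane, and ATP synthase uses the proton gradient to make ATP. Complexes I, II and III carry iron-sulfur clusters, complexes II, III and IV and cytochrome c carry heme, and ATP synthase carries no iron centre, so the enzymes differ in their need for iron. In the small intestine, enterocytes are rich in mitochondria, and their mucosa takes up dietary iron. The heme groups of complex IV and of cytochrome b sit in subunits encoded by mitochondrial DNA, which were not analysed here, so the nuclear-encoded members that hold iron belong to complexes I to III.

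Promoters of these genes are known to hold sites for ETS family factors (GABP), NRF1 and YY1, so the window from 250 bases before to 50 bases after each start was taken from RefSeq (build GRCr8) and searched on both strands for CCGGAAG (ETS), GCATGCGC (the core of the NRF1 site) and AAGATGGC (YY1). Of 76 members that are subunits, 68 matched a window by gene identifier. ETS letters were found in 20 (29.4%), YY1 letters in 15 (22.1%) and NRF1 letters in 7 (10.3%), against 9.22%, 3.44% and 2.66% of the windows of all 27457 genes and 15.2%, 4.80% and 4.35% of the windows of genes named on either array. The longer NRF1 palindrome of 10 letters, the core joined with its reverse complement, was in 3 of the 68 (4.41%) against 0.932% and 1.66%. In all, 31 of the 68 held at least 1 of these letter runs, and runs of different factors did not overlap. Complexes I to IV held ETS letters in 15 of 54 windows and ATP synthase in 5 of 14, and the genes of iron-binding subunits in 4 of 9. The median GC content was 56% in the members' windows and 52.3% in those of all genes, or 60% for genes named on the arrays. A match describes letters in a window. It shows neither binding nor a cause of any difference in signal. One window for each complex is printed 5' to 3' along the gene. Ndufs8 and Sdhd hold iron centres, and Uqcrc2, Cox4i1 and Atp5po lay below 0 in the comparison that follows. All 5 printed windows hold matches, where 31 of the 68 did, so they are not typical of the members. On the array type with most members, Cox5a lay lower than Cox4i1 and Atp5mpl lay lower than Atp5po. Cox5a was placed by a dim probe set, and a brighter one that also carries another symbol gave a log2 difference of -0.03. The windows of Cox5a and Atp5mpl held none of these letter runs. Whether a match goes with a direction was not tested. Capitals mark the matches, which in Atp5po include the core on both strands (CTTCCGG is CCGGAAG read on the other strand). The windows are Ndufs8 at chr1:210573649-210573948 on the minus strand, Sdhd at chr8:59850592-59850891 on the minus strand, Uqcrc2 at chr1:184598990-184599289 on the plus strand, Cox4i1 at chr19:65630133-65630432 on the plus strand and Atp5po at chr11:44657434-44657733 on the minus strand.
Ndufs8: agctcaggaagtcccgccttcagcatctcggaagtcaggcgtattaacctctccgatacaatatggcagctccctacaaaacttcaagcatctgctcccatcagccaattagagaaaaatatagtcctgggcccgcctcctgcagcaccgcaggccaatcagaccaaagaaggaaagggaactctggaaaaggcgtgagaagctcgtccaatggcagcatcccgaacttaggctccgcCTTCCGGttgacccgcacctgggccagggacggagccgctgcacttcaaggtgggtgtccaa
Sdhd: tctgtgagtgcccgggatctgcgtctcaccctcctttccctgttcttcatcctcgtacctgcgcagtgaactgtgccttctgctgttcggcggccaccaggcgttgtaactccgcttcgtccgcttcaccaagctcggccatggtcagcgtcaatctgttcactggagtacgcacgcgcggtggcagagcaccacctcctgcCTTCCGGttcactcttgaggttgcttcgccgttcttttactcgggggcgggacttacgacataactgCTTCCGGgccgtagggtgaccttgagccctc
Uqcrc2: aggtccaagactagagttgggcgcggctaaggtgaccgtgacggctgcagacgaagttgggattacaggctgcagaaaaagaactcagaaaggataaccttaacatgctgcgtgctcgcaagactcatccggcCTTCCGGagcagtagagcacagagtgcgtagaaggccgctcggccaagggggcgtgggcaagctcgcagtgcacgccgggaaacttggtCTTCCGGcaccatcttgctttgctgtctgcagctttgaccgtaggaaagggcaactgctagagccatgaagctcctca
Cox4i1: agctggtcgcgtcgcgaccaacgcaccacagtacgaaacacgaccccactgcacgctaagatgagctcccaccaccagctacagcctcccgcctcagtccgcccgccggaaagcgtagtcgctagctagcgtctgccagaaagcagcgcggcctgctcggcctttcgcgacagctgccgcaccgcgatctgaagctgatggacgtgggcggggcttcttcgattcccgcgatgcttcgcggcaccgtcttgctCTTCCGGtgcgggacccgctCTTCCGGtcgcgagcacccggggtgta
Atp5po: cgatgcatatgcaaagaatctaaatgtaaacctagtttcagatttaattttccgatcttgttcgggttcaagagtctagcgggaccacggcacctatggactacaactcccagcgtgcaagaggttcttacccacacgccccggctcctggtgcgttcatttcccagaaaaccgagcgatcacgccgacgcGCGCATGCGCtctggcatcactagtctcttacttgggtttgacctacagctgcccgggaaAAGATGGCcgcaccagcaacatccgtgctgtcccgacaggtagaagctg

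The low Fe label was checked first on genes outside the members. Tfrc, the transferrin receptor, had a log2 difference, low Fe minus high Fe, of 2.74 ± 0.23 (SE, limma adjusted p = 0.00216), and Slc11a2, the divalent metal transporter, one of 2.19 ± 0.15 (adjusted p = 0.000892). Median signals of the arrays lay between 154.5 and 176.2 on 230A and between 259.5 and 302.8 on 230B. With so few arrays, their number limits how precise any value can be. RNA quality was read from the 5'/3' signal ratio of GAPDH controls, which on 230A was 0.794 to 0.811 in low Fe replicates 2 and 3 and high Fe replicate 1, and 0.876 to 0.922 in the other 3 samples. The same ratio for beta-actin was 0.0539 in low Fe replicate 3 against 0.591 to 0.836 elsewhere. Summed signals of 13 enterocyte markers with a tested 230A probe set ran from 121528 to 189923 in high Fe and from 127994 to 157719 in low Fe. Of 10 smooth muscle markers, 5 had a tested 230A probe set. Actg2, Tagln, Cnn1, Lmod1 and Synpo2 lay below the filter on dim signals there. Summed signals of the 5 tested markers did not overlap, at 3329 to 4021 in high Fe and 4343 to 5636 in low Fe. Mylk made most of these sums, with mean signals of 2754 in high Fe and 3711 in low Fe. Of the 5 markers, 0 were past the threshold (limma), all 5 lay above 0 and the median log2 difference was 0.56. An unadjusted p under 0.05 was found for 3 (Des, Smtn and Mylk), where 6.68% of all tested 230A probe sets had one. On 230B the sums of 3 such markers overlapped, at 884 to 1446 in high Fe and 1026 to 1421 in low Fe, with a median of 0.09 and 1 of 3 below 0. The part of RNA quality and of smooth muscle in the results was not tested, beyond the values within the GAPDH ratio sets given with them. In such bulk samples, fewer cells of a type and less RNA per cell cannot be told apart.

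No respiratory chain or ATP synthase transcript passed the test for a difference between low Fe and high Fe mucosa. Of the 98 probe sets, 91 lay above the filter on dim signals and were tested, 84 on 230A and 7 on 230B. On 230A, 0 of 84 passed an adjusted p of 0.05 in limma (lowest adjusted p 0.735), where 0.0945% of all 9519 tested probe sets did, and 1 of 84, the dim second probe set of Atp5if1, had an unadjusted p under 0.05, where 6.68% of all did. The log2 differences ran from -0.45 to 0.25, with 41 above and 43 below 0 and a median of -0.0036, beside a median of -0.015 over all tested probe sets. In 2 of 84 every low Fe sample lay above every high Fe sample, where 5.61% of all tested probe sets did so, and in 1 of 84 every low Fe sample lay below, where 6.18% did.

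A p that misses the threshold does not show equal levels, so the 95% interval of each difference was set against a change of 1.5-fold in either direction (0.58 on the log2 scale). The interval lay within these bounds for 76 of 84 member probe sets (90.5%), where 58.1% of all 9519 did. Signal bears on this share, because intervals of bright probe sets are narrower. At a mean signal of at least 1000, 70 of 71 member probe sets (98.6%) lay within 1.5-fold, against 74.2% of 2479 probe sets, and their median absolute log2 difference was 0.06 against 0.12. These sets still differ in signal, with a median of 4727 for the members and 2014 for the 2479. Members were thus not set against equally bright probe sets. Below 1000, 6 of 13 members (46.2%) lay within the bounds against 52.4% of 7040, and the median absolute difference was 0.15 in both. With 1 probe set, the brightest, standing for each gene, 75 of 81 genes lay within 1.5-fold. The 6 genes whose intervals reached past 1.5-fold were Ndufa5, Ndufb8, Cox5a, Atp5mpl, Ndufaf5 and Ndufaf8. Atp5mpl was the only one of them with a mean signal of at least 1000. These shares are of 230A. On 230B the interval lay within 1.5-fold for 1 of 7 member probe sets (14.3%), where 18.6% of all 9165 did, so most members there are not bounded in this way.

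**Figure D1:**
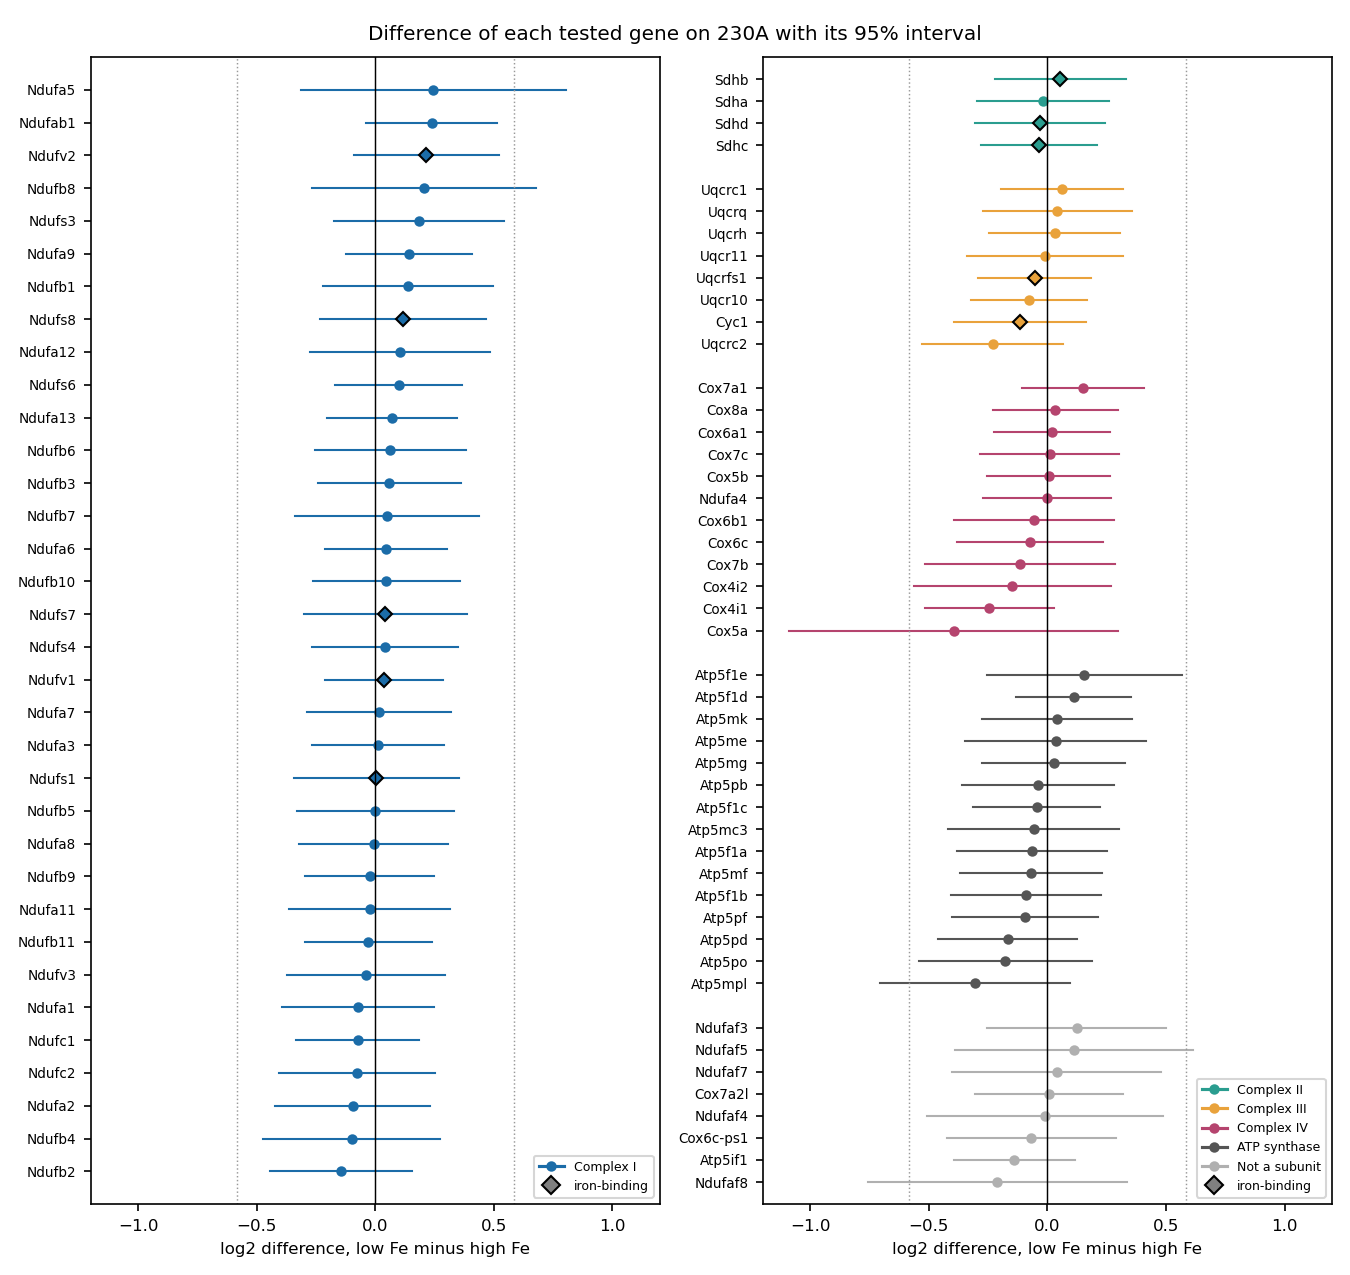
Log2 difference, low Fe minus high Fe (x axis), for each of the 81 genes tested on 230A (y axis), ordered within complexes, with its 95% interval from limma; diamonds mark iron-binding subunits and dotted lines mark 1.5-fold. All 81 intervals hold 0, and those of 75 stay between the dotted lines.

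**Figure D2:**
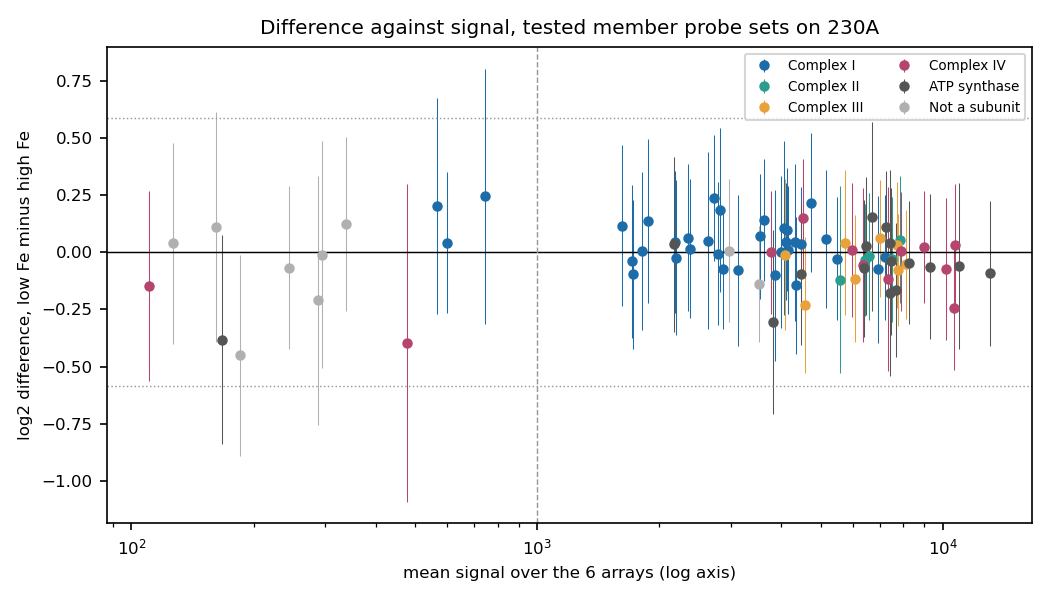
Log2 difference, low Fe minus high Fe (y axis), against the mean signal over the 6 arrays (x axis, log scale) for the 84 tested member probe sets on 230A, with 95% intervals; dotted lines mark 1.5-fold and the dashed line a signal of 1000. Of the 71 probe sets to the right of the dashed line, 70 have intervals inside the dotted lines, against 6 of the 13 to its left.

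The complexes with iron centres did not separate from ATP synthase. Of 73 subunit genes tested on 230A, 58 belonged to complexes I to IV and had a median log2 difference of 0.0070, with 32 above and 26 below 0, and 15 belonged to ATP synthase and had a median of -0.06, with 5 above and 10 below. The medians differed by 0.07. By complex, the medians were 0.04 for complex I (23 of 34 genes above 0), -0.03 for complex II (1 of 4), -0.03 for complex III (3 of 8) and -0.03 for complex IV (5 of 12). The 10 iron-binding subunits had a median of 0.02 (6 above 0, 4 below), and the 48 genes of complexes I to IV without an iron centre one of 0.0069 (26 above, 22 below). Within ATP synthase, the 5 genes of the F1 part (the catalytic pair and the gamma, delta and epsilon subunits) had a median of -0.05. The 10 of the peripheral stalk and membrane part had one of -0.06.

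The spread between samples was larger than these differences. The median deviation of complex I to IV genes from their own means was -0.05, 0.07 and -0.03 in high Fe replicates 1, 2 and 3 and -0.07, 0.05 and 0.05 in low Fe replicates 1, 2 and 3, on the log2 scale. For ATP synthase it was -0.09, 0.22 and -0.03 in high Fe and -0.09, 0.08 and 0.0080 in low Fe. The gap between them, complexes I to IV minus ATP synthase, was 0.04, -0.14 and 0.0017 in high Fe and 0.02, -0.03 and 0.05 in low Fe, a difference of group means of 0.04 beside a pooled SD of 0.07. The groups overlapped in all of these. The difference of 0.07 between the medians of complexes I to IV and of ATP synthase shrank to 0.0082 without high Fe replicate 2, to 0.0092 without low Fe replicate 3 and to 0.025 without high Fe replicate 3, and was 0.079 to 0.097 without any one of the other 3 samples. It was 0.016 with samples blocked by GAPDH ratio and -0.0092 under quantile normalization.

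Complex I and the iron-binding subunits showed the same overlap. Complex I stood at -0.01, 0.0089 and -0.05 in high Fe and at -0.13, 0.08 and 0.11 in low Fe, so the lowest and the highest values were both low Fe samples. The iron-binding subunits stood at -0.11, 0.04 and 0.0053 in high Fe and at -0.04, 0.04 and 0.05 in low Fe. The direction differed between the sets of samples with a lower and a higher GAPDH 5'/3' ratio. Low Fe minus high Fe was 0.10 for complexes I to IV and 0.14 for ATP synthase among the 3 samples with a lower ratio, and -0.10 and -0.19 among the 3 with a higher ratio. It was 0.16 and -0.07 for the iron-binding subunits. Each set holds 2 samples of one group and 1 of the other, so these values have no test.

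**Figure D3:**
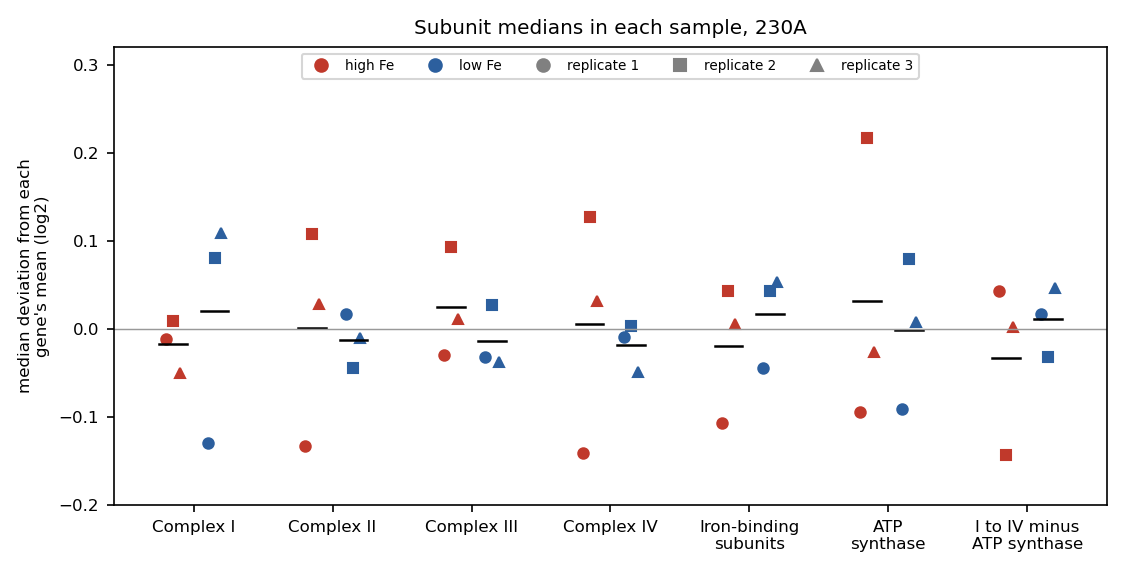
Median deviation of subunit genes from each gene's own mean over the 6 arrays (y axis, log2) in each 230A sample, by complex, for the iron-binding subunits, for ATP synthase and for complexes I to IV minus ATP synthase (x axis); colours give the groups, symbols the replicates and bars the group means. High Fe and low Fe samples overlap in every column, and ATP synthase is highest in high Fe replicate 2 at 0.22.

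In complex I, which oxidises NADH, the tested subunits with iron-sulfur clusters were Ndufs1, Ndufs7, Ndufs8, Ndufv1 and Ndufv2. Ndufv2, a cluster protein of the NADH-oxidising arm, gave signals of 4020, 4193 and 4901 in high Fe replicates 1 to 3 and 4419, 5486 and 5344 in low Fe. Its low Fe samples were mostly higher, but the groups overlapped, and the log2 difference was 0.22 ± 0.13 (SE, 95% interval -0.09 to 0.52). Ndufs8, which carries clusters in the arm that leads to ubiquinone, gave 1426, 1562 and 1655 in high Fe and 1356, 1841 and 1884 in low Fe, a difference of 0.12 ± 0.15. Ndufs7, whose cluster hands electrons to ubiquinone, gave 4658, 3994 and 4100 against 3542, 4784 and 4924, a difference of 0.04 ± 0.15. In both, low Fe replicate 1 was the lowest sample and low Fe replicates 2 and 3 were the highest. Ndufv1, which binds NADH and the flavin, gave 4336, 4580 and 4320 in high Fe and 4247, 4831 and 4520 in low Fe (0.04 ± 0.11). Ndufs1, the largest subunit of the complex, gave 1581, 2248 and 1646 in high Fe and 1786, 1769 and 1871 in low Fe (0.0049 ± 0.15). High Fe replicate 2 was above every other sample for Ndufs1, and the 3 low Fe samples lay within the high Fe range.

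Complex II, succinate dehydrogenase, links the citric acid cycle to the chain. Sdhb, its iron-sulfur subunit, gave 6950, 8763 and 7373 in high Fe and 8098, 8255 and 7521 in low Fe, a log2 difference of 0.05 ± 0.12. Sdhc and Sdhd are the membrane anchors that hold the heme. Sdhc gave 6107, 6653 and 6773 in high Fe and 6168, 6168 and 6738 in low Fe, a difference of -0.03 ± 0.11. Sdhd, on the brighter of its 2 probe sets, gave 6793, 8650 and 7389 against 7410, 7252 and 7562, a difference of -0.03 ± 0.12. For Sdhb, Sdhc and Sdhd every low Fe sample lay within the high Fe range. The dimmer Sdhd probe set gave -0.12 ± 0.18. Sdha, the flavin-bearing catalytic subunit without an iron centre, gave -0.02 ± 0.12.

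Complex III passes electrons from ubiquinol to cytochrome c. Cyc1, cytochrome c1, which holds a heme, gave 6746, 5834 and 6355 in high Fe and 6268, 6070 and 5160 in low Fe, a log2 difference of -0.12 ± 0.12 (95% interval -0.39 to 0.16). Uqcrfs1, the Rieske iron-sulfur protein, gave 7975, 8538 and 8279 in high Fe and 7942, 7537 and 8422 in low Fe, a difference of -0.05 ± 0.10 (interval -0.29 to 0.18). The groups overlapped in both. Over the 10 iron-binding subunits, limma adjusted p-values ran from 0.786 for Ndufv2 to 0.996 for Ndufs1, and all 10 intervals lay within 1.5-fold. Cycs, cytochrome c, had no probe set of its own.

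**Figure D4:**
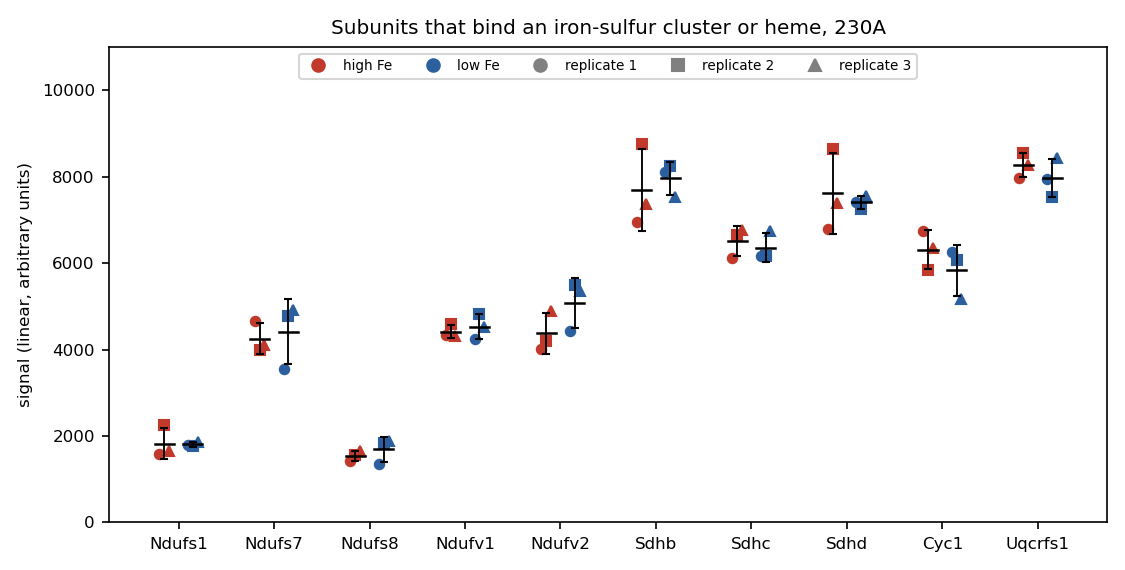
Signal (y axis, linear, arbitrary units) of the 10 tested iron-binding subunits of complexes I to III (x axis) in each 230A sample; symbols give the replicates, and bars give the mean ± SD of each group (n = 3). The high Fe and low Fe samples overlap for each gene; levels are comparable between samples of a gene but not between genes.

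Among subunits without an iron centre, the lowest unadjusted p in complex I belonged to Ndufab1, the mitochondrial acyl carrier protein. It gave 2486, 2659 and 2366 in high Fe and 2716, 3268 and 2898 in low Fe. Every low Fe sample was above every high Fe sample, and the log2 difference of 0.24 ± 0.12 (interval -0.04 to 0.51) did not pass (adjusted p = 0.765). Ndufb2, an accessory subunit of the membrane arm, gave 4660, 4739 and 4273 in high Fe against 3515, 4280 and 4631 in low Fe, a difference of -0.15 ± 0.13. Ndufa2, an accessory subunit of the arm in the matrix, gave 1730, 1860 and 1721 against 1391, 1689 and 1929 (-0.10 ± 0.14). Both had overlapping groups, with low Fe replicate 1 lowest. The other complex I genes lay between -0.10 and 0.25, where the upper end was Ndufa5, a dim accessory subunit at a mean signal of 745, whose difference of 0.25 ± 0.25 had an interval of -0.31 to 0.80.

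In complex III, the core protein Uqcrc2 lay lowest, with 4424, 5619 and 4767 in high Fe and 3798, 4477 and 4310 in low Fe. Low Fe replicate 2 was above high Fe replicate 1, so the groups overlapped, and the log2 difference was -0.23 ± 0.13 (adjusted p = 0.778). Its 230B probe set gave -0.07 ± 0.36. The partner core protein Uqcrc1 gave 6922, 6661 and 6953 in high Fe and 6833, 7955 and 6702 in low Fe, a difference of 0.06 ± 0.11 whose sign was set by low Fe replicate 2 (-0.02 without it). Uqcrq, a small membrane subunit, gave 4871, 6719 and 5406 against 5476, 5777 and 6104, a difference of 0.04 ± 0.14, or -0.06 without high Fe replicate 1. The 2 core proteins thus lay on either side of 0, each with an interval that held 0.

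Complex IV, cytochrome c oxidase, passes electrons to oxygen. Cox4i1, the common isoform of its subunit 4, which binds adenine nucleotides, gave 10445, 11159 and 13214 in high Fe and 9551, 10103 and 9591 in low Fe. All low Fe samples lay below all high Fe samples, with a mean of 9748 ± 308 against 11606 ± 1438 (SD, n = 3 each). The log2 difference of -0.24 ± 0.12 (interval -0.52 to 0.03) did not pass (limma adjusted p = 0.757), and it ran from -0.32 to -0.15 without 1 array. Cox4i2, the isoform of the same subunit known to answer low oxygen, was dim, with 102, 116 and 134 in high Fe and 113, 106 and 92.9 in low Fe, a difference of -0.15 ± 0.18 with overlapping groups. Ndufa4l2, another isoform known to answer low oxygen, lay below the filter in both groups, at 77.3, 70.8 and 68.2 in high Fe and 56.4, 66.4 and 43.3 in low Fe.

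The muscle isoforms of complex IV gave different pictures. Cox6a2 and Cox8b, known from heart and skeletal muscle, lay below the filter, with signals of at most 62 and 16.3 on any 230A array. Cox7a1, likewise known from muscle, gave 4528, 4073 and 4279 in high Fe and 5111, 4418 and 4781 in low Fe, a log2 difference of 0.15 ± 0.11 with overlapping groups. Cox8a, the common isoform of subunit 8, gave 9284, 11279 and 11365 in high Fe and 10759, 11041 and 10737 in low Fe (0.03 ± 0.12, or -0.06 without high Fe replicate 1). Cox5a, a subunit on the matrix side, had only a dim probe set of its own, with 339, 708 and 593 in high Fe and 574, 290 and 366 in low Fe. Its samples overlapped and spread widely, and its difference of -0.40 ± 0.31 had the widest interval of the 81 member genes tested on 230A, -1.09 to 0.30. It was -0.70 without high Fe replicate 1, -0.18 without high Fe replicate 2 and -0.11 with samples blocked by GAPDH ratio. Ndufa4, counted here in complex IV, gave -0.00075 ± 0.12. Cox6b2, the testis isoform, lay below the filter at a mean signal of 10.1.

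ATP synthase genes gave as small a range. In the F1 part, which makes ATP, Atp5f1d (the delta subunit) gave 6467, 7168 and 7275 in high Fe and 7290, 7818 and 7446 in low Fe. Every low Fe sample was above every high Fe sample, by as little as 7290 against 7275, and the log2 difference of 0.11 ± 0.11 did not pass (adjusted p = 0.860). Atp5f1e, the epsilon subunit, gave 6416, 7421 and 5123 against 5575, 8158 and 7415, a difference of 0.16 ± 0.18 with overlapping groups. The catalytic pair Atp5f1a and Atp5f1b gave -0.06 ± 0.14 and -0.09 ± 0.14. In the membrane part, Atp5mpl, a small proteolipid, gave 3942, 4977 and 3673 in high Fe and 2688, 3531 and 4015 in low Fe, a difference of -0.31 ± 0.18 (adjusted p = 0.778). Atp5pd, a subunit of the peripheral stalk, gave 7540, 9478 and 7378 against 7236, 7585 and 6785 (-0.17 ± 0.13). Groups overlapped for both, and for Atp5pd low Fe replicate 2 was the only low Fe sample inside the high Fe range.

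Among the ATP synthase genes and the inhibitor, 4 had a second tested probe set. For Atp5po, Atp5if1 and Atp5me it gave a lower difference than the one that stands for the gene on 230A. For Atp5f1c it gave a higher one. Atp5po, the stalk subunit that ties the head to the membrane part, gave 7385, 9665 and 6642 in high Fe and 6003, 7394 and 7371 in low Fe on 230A (-0.18 ± 0.16), with overlapping groups. Its 230B probe set gave 460, 479 and 608 in high Fe and 289, 370 and 243 in low Fe. There every low Fe sample lay below every high Fe sample, and the log2 difference of -0.76 ± 0.23 (interval -1.27 to -0.24) did not pass (limma adjusted p = 0.456). Atp5if1, the inhibitor that blocks ATP hydrolysis, gave -0.14 ± 0.11 on its bright probe set and -0.45 ± 0.19 on a dim one (interval -0.89 to -0.01, unadjusted p = 0.046, adjusted p = 0.735), and its other dim one lay below the filter. Atp5me, a small membrane subunit, gave 0.03 ± 0.17 on the bright and -0.38 ± 0.20 on the dim probe set. Atp5f1c, the gamma subunit of the F1 part, gave -0.05 ± 0.12 on 230A and 0.21 ± 0.35 on 230B (interval -0.60 to 1.01), with overlapping groups on both.

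On 230B, 0 of 7 tested members passed in limma (0% of 9165 tested probe sets did) and 1, that of Atp5po, had an unadjusted p under 0.05, where 10.2% of all did. Differences lay below 0 for 6 of 7, with a median of -0.07 beside -0.04 over all. The groups did not overlap in 2 of the 7, with low Fe lower in both, where 10.3% of all tested 230B probe sets had low Fe lower and 7.11% had it higher in this way. These were Atp5po and the assembly factor Ndufaf7, with 448, 373 and 374 in high Fe and 240, 324 and 344 in low Fe (-0.39 ± 0.22, adjusted p = 0.563). Its 230A probe set gave 0.04 ± 0.19. The 7 untested probe sets were those of Cox6a2, Cox6b2, Cox8b and Ndufa4l2, which left these 4 genes without a value in the test, and 1 each of Ndufv3, Atp5if1 and Ndufa9, which had another that was tested. The 8 tested genes on 230A that are not subunits, among them 5 Ndufaf assembly factors and Cox7a2l, a supercomplex factor (0.0065 ± 0.14), lay between -0.21 and 0.12.

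In the lists of other genes of mitochondrial function, 0 passed the threshold (limma) on either array type, and 3 had an unadjusted p under 0.05 (Atpaf2 and Tmem126b on 230A, Tomm22 on 230B). Of all tested probe sets, 6.68% on 230A and 10.2% on 230B had such a p. In the order that follows, the lists held 32, 8, 14, 17 and 4 tested genes on 230A and 10, 9, 3, 4 and 1 on 230B. Of 32 assembly factors tested on 230A, 16 lay above 0 and 16 below, with a median of 0.01. The lowest unadjusted p-values belonged to Atpaf2, an assembly factor of the ATP synthase head (-0.40 ± 0.16, unadjusted p = 0.035), Tmem126b, of complex I assembly (-0.33 ± 0.14, unadjusted p = 0.042), Hccs, which attaches heme to cytochromes c (-0.28 ± 0.14), and Cox18, of complex IV assembly (0.26 ± 0.14). These are the 4 with the smallest p of the list, and their adjusted p-values ran from 0.727 to 0.773. Regulators of mitochondrial biogenesis had a median of 0.0045 over 8 genes on 230A and 0.12 over 9 on 230B, with Sirt3, a mitochondrial deacetylase, at -0.39 ± 0.19, and on 230B Yy1 at 0.38 ± 0.20 and the coactivator Ppargc1a at 0.36 ± 0.20. Citric acid cycle enzymes had a median of 0.03 over 14 genes, with Dld at -0.25 ± 0.14 and Dlst at 0.20 ± 0.11, both of the 2-oxoglutarate dehydrogenase complex. Mitochondrial membrane and import markers had a median of 0.05 over 17 genes, with the chaperonin Hspd1 at 0.41 ± 0.21 and the porin Vdac2 at 0.20 ± 0.10, and Tomm22, an import receptor, at 0.64 ± 0.16 on 230B, which did not pass either, and 0.12 ± 0.23 on 230A. Both Tomm22 values come from the same probe set, which both array types carry. The list of adenine nucleotide and phosphate carriers, which also held the kinases Ckmt1 and Ak3, had a median of -0.13 on 230A. Its 4 genes tested there, Slc25a3, Slc25a5, Ckmt1 and Ak3, all lay below 0. The only gene of this list tested on 230B, Ak3, gave 0.22 ± 0.17 there and -0.04 ± 0.16 on 230A.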

How the data were processed

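Low Fe and high Fe samples were grouped and numbered by their titles. The authors deposited linear intensity values, 1 for each probe set of an array. The values show that arrays had been scaled, since their trimmed mean was 500.1 on 230A arrays and 500.2 on 230B arrays, so a shift common to most genes would be hidden. Their software was not given in the sources used here. Symbols come from the platform annotation, on 230A 12783 probe sets with 1 symbol, 312 with several and 2771 with none, and on 230B 7564, 100 and 7612.

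Signals were transformed as log2(signal + 16). The dimmest 40% by mean were dropped, and the dimmest tested probe set had a signal of 107 (230A) or 186 (230B). Each type was fitted on its whole table using lmFit and trended eBayes of limma 3.58.1 under R 4.3.3, with Benjamini-Hochberg adjustment over all tested probe sets and a threshold of 0.05. The steps were tested on simulated data. Differences are on this log2 scale, which understates those of dim genes. Types were not compared in level. The brightest probe set stood for a gene. Medians over genes have no test.

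Same-numbered samples deviated from their group means with correlations of -0.36, -0.15 and -0.25 on 230A and -0.27, -0.10 and -0.17 on 230B. These values gave no sign of pairing by number, but with 3 samples a group they cannot exclude it. The main fit used no block. Values in every sample are given for iron-binding subunits, for the 2 members of each complex with the smallest unadjusted p in each direction and for Cox4i2 and Ndufa4l2. Of each other list up to 4 genes were named. Values of Atp5po, Ndufaf7, Cox6a2, Cox8b and other members outside this rule were chosen after they were seen. Lists were iron-binding subunits, assembly factors, biogenesis regulators, citric acid cycle enzymes and membrane markers. Others were carriers together with kinases, mitochondrially encoded subunits (0 tested) and markers of 9 cell types. The members and lists were chosen with earlier results of these data known. The NRF1 core was taken after the counts of the longer palindrome, the form searched first, had been seen, so both are given. Markers of striated muscle, fibroblasts, lymphocytes, myeloid, goblet, enteroendocrine and erythroid cells had 0 past the threshold (limma), with 230A medians of -0.04 (3 of the striated muscle markers are members), 0.10, -0.08, 0.08, -0.06, 0.03 and -0.10.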

Additional observations from a re-analysis of the deposited data

How the results depend on the processing

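Members past the threshold stayed at 0 on both array types under each alternative tried, and the lowest adjusted p of a member was 0.341 on 230A (Atp5if1, without low Fe replicate 1) and 0.345 on 230B (Atp5po, without high Fe replicate 1). The count of all 230A probe sets past the threshold, 9, became 33 with arrays scaled to the hybridization controls, 14 with samples blocked by GAPDH ratio and 15 at an adjusted p of 0.1. With the replicate number as a block, it became 4. Without 1 array it ran from 5 (without low Fe replicate 2) to 21 (without low Fe replicate 1). On 230B the count of 0 became 4 with control scaling. Control scaling also moved the median of all probe sets from -0.015 to 0.34 (230A) and from -0.041 to 0.14 (230B), and its log2 differences are given relative to that median. Its counts and adjusted p-values are not, since the test used differences that include the shift. Complexes I to IV minus ATP synthase was -0.0092 under quantile normalization in place of 0.066, and ran from 0.0082 to 0.097 without 1 array. The ATP synthase median was 0.01 both with a common median signal and under quantile normalization and -0.015 with samples blocked by GAPDH ratio, and ran from -0.13 to 0.03 without 1 array. That of complexes I to IV was 0.075 with a common median signal and 0.00057 with the GAPDH block, and ran from -0.04 to 0.06 without 1 array. Signs turned for members close to 0. Under quantile normalization Ndufs1 was -0.0096. With a common median signal Sdhc was 0.035, Sdhd 0.037 and Uqcrfs1 0.015. Sdhd was 0.00088 with control scaling and 0.0075 with the GAPDH block, which put Ndufs7 at -0.066. Without 1 array the ranges crossed 0 for Ndufs1 (-0.089 to 0.16), Ndufs7 (-0.043 to 0.19), Ndufv1 (-0.0095 to 0.083), Sdhb (-0.015 to 0.15), Sdhd (-0.11 to 0.064), Ndufa2 (-0.20 to 0.028), Uqcrc1 (-0.016 to 0.11), Uqcrq (-0.060 to 0.17) and Cox8a (-0.062 to 0.084). Other named members kept their sign without 1 array but moved by over 1.5 times: Ndufs8 (0.032 to 0.27), Ndufb2 (-0.23 to -0.032), Sdhc (-0.079 to -0.0048), Cyc1 (-0.17 to -0.031), Uqcrfs1 (-0.094 to -0.014), Uqcrc2 (-0.31 to -0.13), Cox4i1 (-0.32 to -0.15), Cox4i2 (-0.23 to -0.061), Cox5a (-0.70 to -0.18), Cox7a1 (0.099 to 0.20), Atp5f1d (0.057 to 0.14), Atp5f1e (0.013 to 0.32), Atp5mpl (-0.43 to -0.14) and Atp5pd (-0.23 to -0.052). The cause was not tested. Among 3 samples a group, dim members limit what can be seen. On 230A, only 6 of 13 member probe sets under a signal of 1000 had intervals within 1.5-fold.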

Other observations

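Another 9 probe sets on 230A carry the symbol of a respiratory chain or ATP synthase gene together with that of a copy or pseudogene, and so were not counted among the members: those of Atp5mc1, Atp5mc2, Cox7a2, Cox5a, Uqcrb, Ndufs5 and Ndufa10, and 2 of Cycs. Their log2 differences, low Fe minus high Fe, ran from -0.18 to 0.33 with a median of -0.07, and 0 passed in limma (0 at an unadjusted p under 0.05, lowest adjusted p 0.778). Both Cycs probe sets lay below 0, at -0.18 ± 0.18 and -0.12 ± 0.16 (SE). The second Cox5a probe set gave -0.03 ± 0.11, beside -0.40 ± 0.31 for the dim one assigned to Cox5a alone. Signals of the gene and of its copies cannot be told apart in these probe sets.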
